A study of Chlorocebus sabaeus with 18 samples.

Results

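The 294 genes described here had lower mean RNA levels in both groups of TRA2A knockdown cells than in each other group with counts. The other groups need not be alike, and some members were also well under control cells in groups without the knockdown. They were chosen from measured levels among 52560 single genes, of which 12096 had a mean of at least 50 normalised reads in each of the other 3 groups. For each gene the normalised reads of all exon bins were summed per library and averaged per group. A gene became a member when the higher of its knockdown means was at most 0.75 times the lowest of its other means. The members are 2.43% of the 12096 genes, and because the knockdown contrast chose them, their low knockdown levels are given as a description with no test.

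RNA was measured in COS-7 cells, a kidney fibroblast line of the African green monkey, and its reads were aligned to the human genome. Counts of 15 libraries were used, with 3 in each of 5 groups. These were control cells (CTL), a group that received an expansion of 60 CGG repeats in the leader of FMR1 by transfection (CGG), one overexpressing TRA2A (GFP_TRA), one with a knockdown of TRA2A (siTRA), and one with both the repeat and the knockdown (CGG_siTRA). The sixth group of the 18 samples, with the repeat and TRA2A overexpression (CGG_TRA), entered only through the splicing values the authors deposited. The labels name no empty-vector cells and no control siRNA, so lower TRA2A and other effects of the knockdown treatment cannot be told apart. In CGG vs CTL and GFP_TRA vs CTL, likewise, the repeat or the added TRA2A cannot be told apart from other effects of those treatments. The titles of 2 CGG_siTRA samples name the first and the third round of something the labels do not explain, so the libraries of this group may come from different rounds. The labels do not say whether the 3 samples of a group were separate cultures, and p-values therefore measure only the spread between these samples. In bulk RNA, fewer cells that express a gene and less of its RNA per cell cannot be told apart. Library totals over exon bins ran from 123599617 to 207475255 reads, a read that spans several bins being counted in each. Library 14 of siTRA had the lowest total and stood apart, with a mean Pearson correlation with the other libraries of 0.9781 across genes (log2 of normalised reads plus 1), against 0.987 to 0.9901 for the other 14.

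TRA2A is a nuclear RNA-binding protein related to the SR proteins, which binds purine-rich exonic sequences and helps the spliceosome to recognise exons. Expanded CGG repeats in the leader of FMR1 form structured RNA that collects RNA-binding proteins in nuclear inclusions, and carriers can develop the tremor and ataxia syndrome FXTAS. The series title names the recruitment of TRA2A into such ribonucleoprotein complexes.

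The deposited tables carry human Ensembl identifiers without gene names, and the reference table at hand paired 0 of 52560 identifiers with a name. Members are therefore given by their GRCh38.p10 span as read from the exon bins, and are numbered from gene 1 to gene 294 by increasing share of the level left under knockdown. That share is the higher knockdown mean as a percentage of the lowest other mean. Lists of splicing factors, other pathways and cell markers could not be applied to identifiers without names, so neither the roles of the members nor the labelled cell type was checked here.

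Most members, 233 of the 294, kept over 60% of their level. The share left was at most 50% in 21 genes, over 50% and up to 60% in 40, over 60% and up to 70% in 118, and over 70% in 115. The median ratio was 0.681, against 1.08 over all 12096 genes. It sets the higher knockdown mean over the lowest other mean, so spread between the means raises it. A value of 1.08 therefore does not mean that levels rose under knockdown. Just inside the limit lay gene 293 (chromosome 1, 166057426 to 166166715, minus strand), with 74.95% left, and gene 294 (chromosome 19, 53333749 to 53354869, plus strand), with 74.96%. Just outside it lay genes at chromosome 10, 49818279 to 49941998, with 75.07%, and at chromosome 18, 9708165 to 9862551, with 75.1%. The limit thus cuts through a continuous range of values, as the plot of ratio against level shows.

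**Figure D1:**
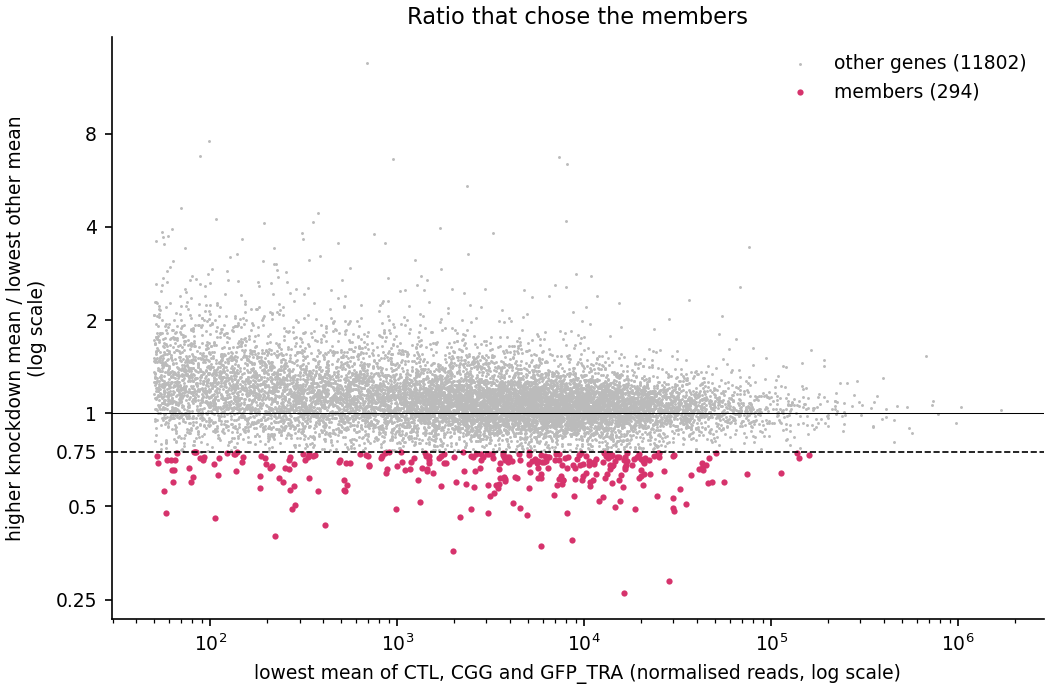
Each point is 1 of the 12096 genes, placed by the lowest mean of CTL, CGG and GFP_TRA in normalised reads (log scale) and by the ratio of the higher knockdown mean to that value (log scale). The 294 members lie at or under the dashed line at 0.75, spread over all levels from 50 upwards, and 2 of them keep under 30%.

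In 264 of the 294 members all 6 knockdown libraries lay under all 9 other libraries, which 6.89% of the other 11802 genes did as well. In the remaining 30 members at least 1 knockdown library reached into the range of the others. The knockdown means of siTRA and CGG_siTRA were within 10% of each other in 191 members and within 25% in 280. The 3 other means were within 10% of each other in 74 members and within 25% in 220, and they differed by over 1.5 times in 22.

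Gene 1, ENSG00000164548.10 (chromosome 7, 23504780 to 23532041, minus strand), is taken to be the targeted gene. No other of the 12096 genes was both 2-fold or more above CTL in GFP_TRA and lowered 2-fold or more by each knockdown. Genes of lower level and groups of overlapping genes were not searched. Since this behaviour gave it the name TRA2A, its levels are no independent check of the labels. Its normalised reads were 17143, 17234 and 16912 in the CTL libraries, 17032, 15675 and 16049.7 in CGG and 204942, 187106 and 221793 in GFP_TRA. Under knockdown they were 3709, 4916 and 3117 in siTRA and 4019.7, 4396 and 4408 in CGG_siTRA. The 3 overexpressing libraries stood far above the rest, the 6 knockdown libraries far below, and CTL and CGG overlapped. With 26.3% left, TRA2A had the lowest ratio of all members. Of its 27 exon bins with a mean of at least 10 in some group, 25 were lower in both knockdown groups than in every other group. The bins split under overexpression: 16 reached over 5 times CTL in GFP_TRA, while 11 stayed under 1.5 times. The latter include the longest of these bins (23504784 to 23505248, 465 bases, near the 3' end), which averaged 513 in CTL, 540.2 in GFP_TRA, 145 in siTRA and 122 in CGG_siTRA.

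Gene 2 came next to TRA2A in the share left, at a higher level. This gene, ENSG00000187446.11 (chromosome 15, 41230839 to 41281890, plus strand), had 27712, 28796 and 28343 reads in CTL, 33098, 32022 and 31770.1 in CGG and 30062, 28234 and 30181 in GFP_TRA. It had 8022, 9178 and 7131 in siTRA and 7068, 6921 and 8643 in CGG_siTRA, which left 28.7%. Its knockdown libraries lay far under the lowest other library, and its CGG libraries were the highest of all. The CGG libraries exceeded the CTL libraries without overlap, but the log2 change of 0.21 (SE 0.08, adjusted p = 0.061) did not pass the edgeR test with Benjamini-Hochberg adjustment. TRA2A overexpression left it at CTL level within the spread, with a log2 change of 0.03 (SE 0.07, adjusted p = 0.803) by the same test. Members 1 and 2 are the members with under 30% left.

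Genes 3, 4 and 5 kept between 35.8% and 38.8% of their level. Gene 3 (chromosome 20, 37289638 to 37317260, plus strand) had 1997, 2025 and 1903 reads in CTL, 2216, 2219.5 and 2072 in CGG and 2348, 2456 and 2360.2 in GFP_TRA, against 597, 677 and 509.6 in siTRA and 653, 619 and 852 in CGG_siTRA. Gene 4 (chromosome 2, 201451669 to 201480846, plus strand) had 5821, 5624 and 6104 in CTL, 6380.2, 6049.9 and 6299 in CGG and 6183, 6234 and 6456 in GFP_TRA, against 1803, 2754 and 1993 and 2143, 1820.2 and 2136 in the knockdown groups. In gene 4 the 9 other libraries formed a narrow band, while in gene 3 they stepped up from CTL to CGG to GFP_TRA without overlap. The knockdown libraries of both genes lay well under the 9 others. Gene 5 (chromosome 10, 114938193 to 114977676, plus strand) had 8101, 8840.3 and 8862 in CTL, 8847, 8436 and 8761 in CGG and 9362, 9577 and 9736 in GFP_TRA. Its siTRA libraries had 3182, 3551 and 2898 reads and its CGG_siTRA libraries 3516, 3067 and 3438. As in gene 3, its GFP_TRA libraries were all above its CTL libraries, but neither difference passed the edgeR test with Benjamini-Hochberg adjustment (log2 change 0.25 (SE 0.10, adjusted p = 0.0738) for gene 3 and 0.12 (SE 0.07, adjusted p = 0.204) for gene 5).

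The other members of the 25 with the lowest share left kept 40.3% to 51.6%. In each of the 25 genes all 6 knockdown libraries lay under all 9 others, as in 6.89% of the 11802 genes that are not members. The 25 were chosen for low ratios in these same libraries, so this describes the choice. Genes 6 and 8 have a single bin without coordinates, with CTL means of 236 ± 45.7 (SD, n = 3) and 106 ± 13.4 (SD, n = 3) reads. Genes 9 (chromosome 1, 32862268 to 32872480, minus strand), 10 (chromosome 5, 81301590 to 81313297, plus strand) and 11 (chromosome 11, 126269055 to 126278124, plus strand) kept 46.1%, 47.1% and 47.7%, from CTL means of 2270.0 ± 58.3 (SD, n = 3), 5529 ± 230.4 (SD, n = 3) and 3045 ± 226 (SD, n = 3) reads.

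Several of the 25 were expressed at high levels. Gene 14 (chromosome 1, 16353300 to 16398145, plus strand) went from a CTL mean of 30176 ± 865 (SD, n = 3) to siTRA and CGG_siTRA means of 13712 ± 597 (SD, n = 3) and 14572 ± 2228 (SD, n = 3). Gene 17 (chromosome 17, 48070052 to 48101521, minus strand) went from 20433 ± 937 (SD, n = 3) to 9111 ± 785 (SD, n = 3) and 9036 ± 973 (SD, n = 3), and gene 20 (chromosome 2, 74152528 to 74178898, minus strand) from 30697 ± 1471 (SD, n = 3) to 14765 ± 2559 (SD, n = 3) and 13237 ± 783 (SD, n = 3). For genes 13 (chromosome 6, 149724315 to 149749665, minus strand) and 21 (chromosome 17, 75318076 to 75405653, minus strand) the CTL means were 8739 ± 238 (SD, n = 3) and 15005 ± 396 (SD, n = 3) and the siTRA means 3867 ± 272 (SD, n = 3) and 7232 ± 122 (SD, n = 3). All of these kept 47.8% to 49.8%. Their shares are close because the genes are near neighbours in an order set by that share, which says nothing on how share and level relate. At lower levels, genes 15 (chromosome 8, 53851808 to 53959303, plus strand), 18 (chromosome 13, 39009866 to 39038076, minus strand), 19 (chromosome 6, 57172326 to 57189833, plus strand) and 24 (chromosome 12, 128793191 to 128823983, minus strand) kept 48.9%, 49.2%, 49.4% and 51.2%.

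Some of the 25 rest on few reads or on uneven libraries. Gene 7 (chromosome 20, 45898621 to 45912147, minus strand) had 188, 93.7 and 208 reads in siTRA against 427, 465 and 563 in CTL, its library 14 standing lowest. Gene 16 (chromosome 19, 45890020 to 45902604, minus strand) had 90.4, 219.9 and 92.8 in siTRA against 287, 273 and 263 in CTL, with library 14 standing more than 2-fold above its partners. Gene 22 (chromosome 11, 124673798 to 124697518, plus strand) had 179.9, 129 and 118 in siTRA against 375, 344 and 312 in CTL. Library 14 was the lowest of the siTRA libraries in gene 7 and the highest in gene 16, while in gene 22 library 13 was the highest. The spans of genes 7, 13, 19, 22 and 23 overlap a measured gene on the other strand, and whether reads were counted by strand is not given in the sources used here.

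Genes 12 and 25 were already lower in CGG and GFP_TRA than in CTL. Gene 25 (chromosome 6, 110099819 to 110180004, minus strand) had 1848, 1924 and 1893 reads in CTL, 1534, 1439 and 1344 in CGG and 1259.9, 1330.1 and 1379.8 in GFP_TRA, and 709, 804 and 537 and 619.7, 616 and 623 in the knockdown groups. Gene 12 (chromosome 17, 81952507 to 81961293, minus strand) had 131, 129 and 186 in CTL, 49.7, 65.5 and 58.5 in CGG and 56.6, 68.6 and 88.6 in GFP_TRA, and 35.8, 5.21 and 42.0 and 18.6, 33.7 and 24.9 in the knockdown groups. In both genes the levels therefore form 3 steps, with CTL highest and the knockdown groups lowest, although the steps of gene 12 hold fewer than 200 reads.

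**Figure D2:**
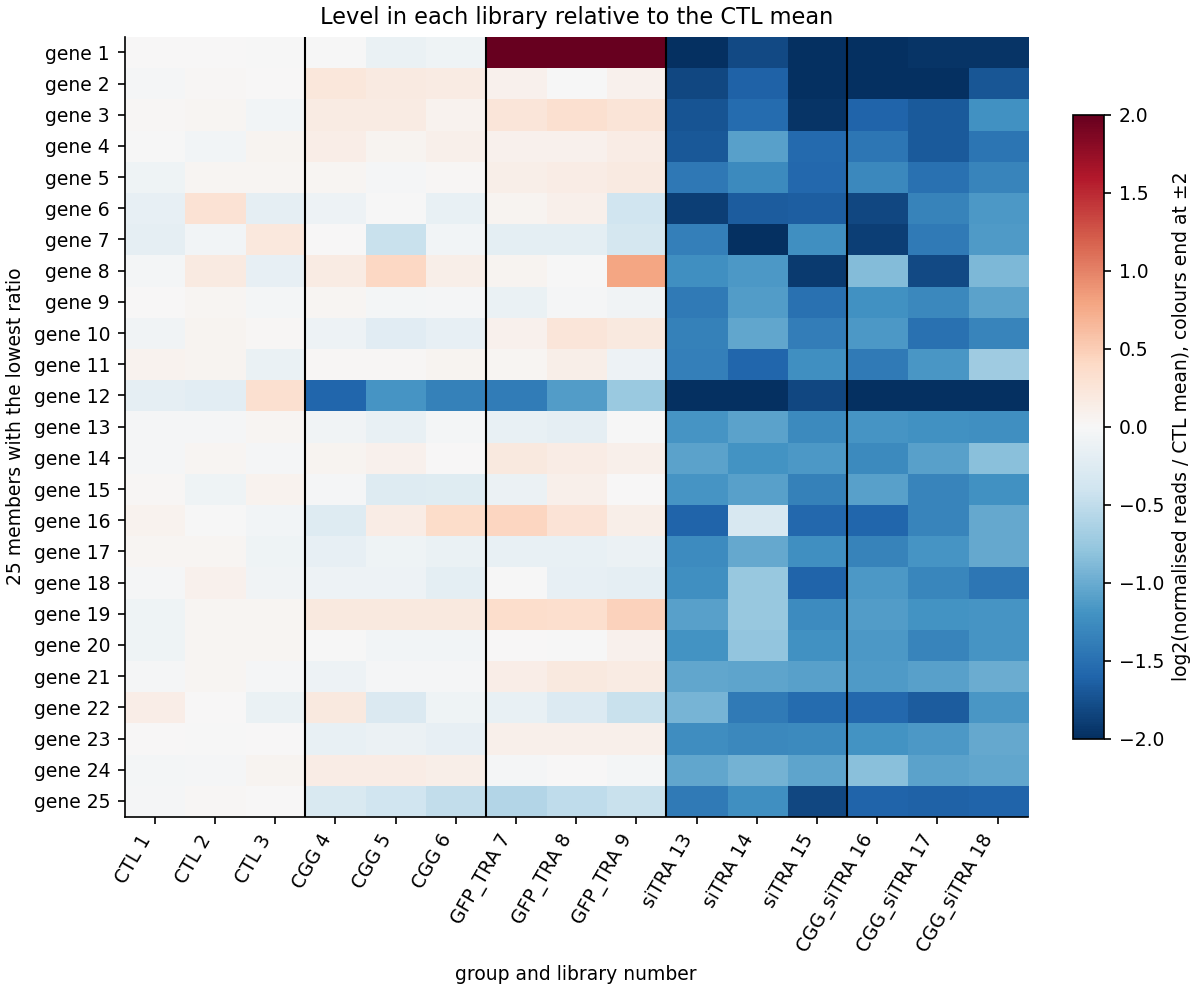
Each row is 1 of the 25 members with the lowest share left and each column 1 library, coloured by the log2 of its normalised reads over the CTL mean of the gene, with colours ending at ±2. The 6 knockdown columns on the right are blue in every row, TRA2A (gene 1) is dark red in GFP_TRA, and genes 12 and 25 are blue in CGG and GFP_TRA as well.

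The members as a set stood at a similar level in all 6 knockdown libraries. Relative to a gene's mean over the 9 other libraries, the median member lay at 0.587, 0.623 and 0.574 in the siTRA libraries and at 0.575, 0.572 and 0.599 in the CGG_siTRA libraries. In the 9 other libraries the median member lay between 0.955 and 1.03. The other 11802 genes also lay under 1 in these knockdown libraries, with medians of 0.897 to 0.986, on the scale of the authors' factors. With TMM factors in their place the same rule kept 205 genes, all of them among the 294 (69.7%). On the authors' factors the median log2 change of all genes tested was -0.10 in CGG_siTRA vs CTL and -0.09 in CGG_siTRA vs CGG, against 0.01 in both with TMM factors, on which the edgeR tests rest.

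**Figure D3:**
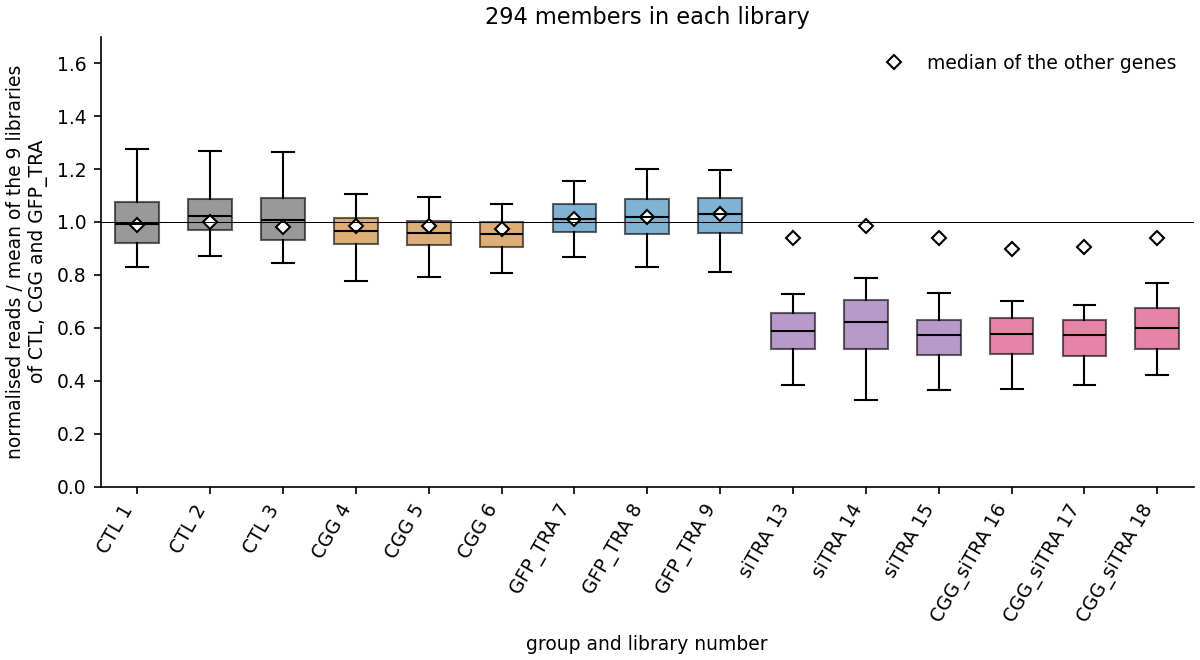
Boxes show the quartiles and medians of the 294 members in each library, whiskers the 5th and 95th percentiles, as normalised reads over the gene's mean in the 9 libraries of CTL, CGG and GFP_TRA, and diamonds the median of the other genes. Member medians lie between 0.572 and 0.623 in the knockdown libraries, where the diamonds lie between 0.897 and 0.986.

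Library 14 of siTRA had the highest of the 3 siTRA values in 167 members (56.8%), as it did in 53.0% of the other genes. Its TRA2A level was also the highest of the knockdown libraries, at 4916 reads against 3117 to 4408 in the other 5. The part of library 14 in the members' levels was not tested beyond leaving it out, which changed the number of members to 337. The ratio of TRA2A, 0.263, uses the CGG_siTRA mean as the higher knockdown mean, so leaving out library 14 could not change it. The ratio of gene 2 was 0.287 with library 14 and 0.268 without it.

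Members covered the whole range of levels. Their median CTL mean was 4564 reads, against 3066 over the 12096 genes; 96 had a CTL mean of 10000 or more and 33 one under 200. Per kilobase of summed exon bins, the highest CTL level belonged to gene 286 (chromosome 6, 27125897 to 27132750, minus strand), with 32363 reads per kilobase. Its libraries had 28696, 33917 and 29619.5 reads in CTL, 24961, 25613 and 23913 in CGG and 29387, 32335 and 23750.0 in GFP_TRA, then 16884, 13889 and 15753 in siTRA and 15242, 16924 and 23447 in CGG_siTRA. The last of these, library 18, nearly reached the lowest of the other groups. Genes 252 (chromosome 17, 40388516 to 40417950, minus strand), 102 (chromosome 2, 73233420 to 73253021, plus strand), 101 (chromosome 6, 18223868 to 18264823, minus strand) and 128 (chromosome 1, 43358955 to 43363203, plus strand) followed with 31985, 31246, 21701 and 21020 reads per kilobase in CTL. Gene 102 went from CTL reads of 112101, 114404 and 110107 to 72467, 64613 and 78474 in siTRA and 68497, 65451 and 79399 in CGG_siTRA, and rose in GFP_TRA to 138155, 138289 and 142815 (log2 change 0.29 (SE 0.08, adjusted p = 0.0119), from the Benjamini-Hochberg adjusted edgeR test).

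The other comparisons ask how far the members also differ with the repeat or with TRA2A overexpression. All 5 group means enter the rule, through the lowest of 3 and the higher of 2, so these differences are not independent of the choice of members. Cells with the repeat were set against CTL first. Of the 294 members 11 rose (9.75% of the 17526 genes tested did) and 45 fell (10.7%) in CGG vs CTL, in the edgeR test after Benjamini-Hochberg adjustment. The median log2 change of the members was -0.04, and 0.01 over all genes tested. As shares, 3.74% of members rose and 15.3% fell, against 12.0% and 13.2% of the other genes with a lowest mean of 50 or more. Without CTL library 3 the members called numbered 37 (6 higher and 31 lower), with 6.76% and 7.63% of all genes called. When only the libraries of CGG and CTL were fitted they numbered 116 (33 higher and 83 lower), and of all genes 19.8% were called higher and 19.8% lower in that fit.

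The 5 largest falls in CGG vs CTL were in genes that stood high in CTL alone. Gene 267 (chromosome 1, 41478775 to 41484673, minus strand) had 1132, 1243 and 1334 reads in CTL, 396, 293 and 322 in CGG and 623, 701 and 408 in GFP_TRA, and 240.1, 160.1 and 215 and 177, 209 and 361 in the knockdown groups. Its log2 change was -1.86 (SE 0.23, adjusted p = 1.65e-05) in the edgeR test after Benjamini-Hochberg adjustment. The CGG and CGG_siTRA libraries of this gene overlapped, so its place among the members rests on small differences below a large one. Gene 255 (chromosome 4, 52862332 to 52866835, plus strand) likewise had 1957, 1873 and 1609 reads in CTL, 746, 639.5 and 656 in CGG and 876, 948 and 858 in GFP_TRA, with 385, 668 and 434 and 429, 440.3 and 632 in the knockdown groups. Its log2 change was -1.40 (SE 0.16, adjusted p = 5.5e-06) by the same edgeR test. Gene 155 (chromosome 5, 171419656 to 171457623, plus strand) had 256, 226 and 185 reads in CTL and 78.2, 98.7 and 137 in CGG, a log2 change of -1.05 (SE 0.20, adjusted p = 0.00112).

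Gene 12 and gene 184 (chromosome X, 8528874 to 8732186, minus strand) completed these falls at low levels. Gene 184 had 129, 167 and 109 reads in CTL and 39.1, 73.5 and 73.2 in CGG. The edgeR log2 changes with Benjamini-Hochberg adjustment were -1.35 (SE 0.38, adjusted p = 0.0183) for gene 12 and -1.10 (SE 0.28, adjusted p = 0.0103) for gene 184. Both calls were lost without single libraries. The adjusted p of gene 12 lay between 0.0602 and 0.0938 without CGG library 4 or 6 or CTL library 3, and that of gene 184 was 0.0567 without CGG library 4 and 0.0584 without CTL library 2.

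Among the members called, the 5 largest rises in CGG vs CTL were smaller than these falls. Gene 110 (chromosome X, 101550531 to 101554700, plus strand) rose from 2238, 2294 and 2294 reads in CTL to 3946, 4022 and 4098 in CGG, a log2 change of 0.84 (SE 0.07, adjusted p = 2.23e-07) in the edgeR test after Benjamini-Hochberg adjustment. Its GFP_TRA libraries were as high, at 4221, 4146 and 4606, and its knockdown libraries lay under CTL at 1487, 1646 and 1323 and 1336, 1475 and 1487. Gene 73 (chromosome X, 10156945 to 10237660, plus strand) rose from 1323, 1297 and 1258 to 1874, 1804 and 1636, with 755, 807 and 707 and 715, 797 and 851 under knockdown. These genes thus moved to opposite sides of CTL in the repeat and in the knockdown groups. The log2 changes of gene 73, gene 76 (chromosome 2, 20684014 to 20823122, minus strand), gene 51 (chromosome 17, 49700943 to 49709014, minus strand) and gene 225 (chromosome 1, 74705482 to 74733408, minus strand) were 0.47, 0.35, 0.32 and 0.29, with adjusted p of 0.000296, 0.00193, 0.000985 and 0.00532 by edgeR. The span of gene 225 overlaps a measured gene on the other strand.

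The members were called about as often as all genes under TRA2A overexpression. In GFP_TRA vs CTL 35 members rose (11.9% of all genes tested did) and 40 fell (13% did), in the edgeR test after Benjamini-Hochberg adjustment. These are 11.9% and 13.6% of the members, close to the shares of all genes tested. Of the other genes with a lowest mean of 50 or more, a larger share was called, 14.7% higher and 15.2% lower. Without CTL library 1 the members called numbered 47 (17 higher and 30 lower), with 7.53% and 9.37% of all genes called. The authors' factors gave 41 higher and 34 lower, against 14.1% and 11.6% of all genes. The median log2 change of members was -0.0046, and its sign depended on the setting, with 0.02 on the authors' factors and 0.01 without CTL library 2 or 3. TRA2A itself had the largest rise, a log2 change of 3.55 (SE 0.11, adjusted p = 1.66e-12), and no other member rose as much. Genes 110 and 51 had the next largest called rises that held in every fit that left out a library, at 0.90 (SE 0.07, adjusted p = 1.13e-07) for gene 110 and 0.48 (SE 0.06, adjusted p = 1.53e-05) for gene 51 in edgeR. Gene 51 had 19769.9, 21228 and 20618 reads in CTL, 24556, 26279 and 24973 in CGG and 30338, 28110.2 and 29391 in GFP_TRA, and 12447, 11977 and 11744 and 11755, 11369.6 and 12806 in the knockdown groups, so that its 5 groups form a series from the highest in GFP_TRA to the lowest under knockdown.

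Genes of lower level completed the 5 largest called rises in GFP_TRA vs CTL. Gene 173 (chromosome 17, 28523941 to 28538896, plus strand) had 128, 193 and 123 reads in CTL and 209.7, 240.4 and 259 in GFP_TRA, and gene 274 (chromosome 11, 125096545 to 125111763, minus strand) had 592, 699 and 616 and 867, 979 and 957. Their edgeR log2 changes with Benjamini-Hochberg adjustment were, in this order, 0.64 (SE 0.22, adjusted p = 0.0382) and then 0.53 (SE 0.14, adjusted p = 0.0124). The call of gene 173 was lost without CTL library 1 or 3 or any 1 GFP_TRA library (adjusted p 0.0514 to 0.152), and that of gene 274 without CTL library 1 (adjusted p 0.0591).

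The 5 largest falls in GFP_TRA vs CTL were in genes 267, 12, 255, 184 and 155, the genes with the 5 largest falls in CGG vs CTL. The comparisons share the 3 CTL libraries, and without empty-vector cells other effects of the treatments cannot be told apart from the repeat or TRA2A. In GFP_TRA vs CTL the log2 changes in the edgeR test after Benjamini-Hochberg adjustment were -1.12 (SE 0.22, adjusted p = 0.00137) for gene 267, -1.05 (SE 0.15, adjusted p = 9.96e-05) for gene 255 and -0.89 (SE 0.20, adjusted p = 0.00334) for gene 155. For gene 12 the change was -1.10 (SE 0.38, adjusted p = 0.0411), and it was not called without any 1 of the CTL or GFP_TRA libraries (adjusted p 0.0518 to 0.169). For gene 184 it was -0.99 (SE 0.28, adjusted p = 0.0158), and the call was lost without CTL library 2 (adjusted p 0.0801) or GFP_TRA library 9 (adjusted p 0.0742).

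CGG and GFP_TRA were also compared directly, which leaves out the CTL libraries. In CGG vs GFP_TRA 0 members were higher at an adjusted p under 0.05 in edgeR (4.4% of all genes tested were) and 8 were lower (2.1%), with 9 higher and 36 lower at an unadjusted p under 0.05 (11.4% and 8.92% of all genes) and 2 higher and 19 lower in DESeq2 (6.04% and 3.77%). The 8 lower ones were 2.72% of the members. Of the other genes with a lowest mean of 50 or more, 5.29% were higher and 2.64% lower. Leaving out 1 library gave 2 to 7 of them (4 or fewer without any 1 library but GFP_TRA library 9), the authors' factors 0 higher and 20 lower (3.55% and 4.24% of all genes), and a fit of these groups alone 5 higher and 29 lower (8.51% and 5.8%). TRA2A had the largest difference, at -3.61 (SE 0.11, adjusted p = 1.33e-12). Gene 209, a single-bin gene without coordinates, had 1243, 1229.7 and 1234 reads in CGG against 1695, 1668 and 1639 in GFP_TRA and 1249.7, 1245 and 1321 in CTL (log2 change -0.39 (SE 0.07, adjusted p = 0.00316), from the Benjamini-Hochberg adjusted edgeR test). Gene 146 (chromosome 1, 31259568 to 31296782, minus strand) had 16378, 17673 and 16320.3 in CGG against 21189, 22748 and 21412 in GFP_TRA. Both genes were higher in GFP_TRA than in every other group and lowest under knockdown.

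For genes 146, 237 (chromosome 17, 2689386 to 2711795, minus strand) and 198 (chromosome 1, 28369582 to 28500369, plus strand) the log2 changes in CGG vs GFP_TRA were -0.33 (SE 0.07, adjusted p = 0.0123), -0.33 (SE 0.09, adjusted p = 0.0398) and -0.30 (SE 0.07, adjusted p = 0.0226) in the edgeR test after Benjamini-Hochberg adjustment. Gene 237 had 38913, 37676 and 38707 reads in CTL, 27035, 31232 and 31108 in CGG and 39929, 40901 and 34784 in GFP_TRA, and gene 198 had 5720.3, 5595 and 6189, 4329, 4709 and 4607 and 5504, 5923 and 5869. In these 2 genes the CGG mean was under the means of CTL and GFP_TRA. None of the 3 calls held when single libraries were left out: the adjusted p reached 0.0638 for gene 146 (without CGG library 4 or 6 or GFP_TRA library 8), 0.184 for gene 237 (without any 1 CGG library or GFP_TRA library 7 or 8) and 0.11 for gene 198 (without any 1 CGG library or GFP_TRA library 8 or 9).

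No member passed the test for the repeat once TRA2A was knocked down. In CGG_siTRA vs siTRA 0 members were higher (0.0171% of all genes tested were) and 0 were lower (0%) at an adjusted p under 0.05 in edgeR. At an unadjusted p under 0.05, 38 were higher and 1 was lower, against 9.52% and 7.36% of all genes. DESeq2 called 7 higher and 0 lower, against 1.28% and 1.19%. edgeR called 4 members higher with no filter on low counts (1.42% of all genes were higher and 0.374% lower) and 1 higher without CGG_siTRA library 16 (0.548% and 0.639%). The members' median log2 change was 0.04, against 0.01 over all genes tested, and with the authors' factors it was -0.03, against -0.06. With TMM factors their changes lay between -0.49 and 0.51. On simulated counts of 17526 genes the edgeR test recovered 58% of genes changed 1.5-fold and 76% of genes changed 2-fold in this comparison. These rates are not for the members alone. Whether a difference of that size in a single member would be missed was not tested.

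**Figure D4:**
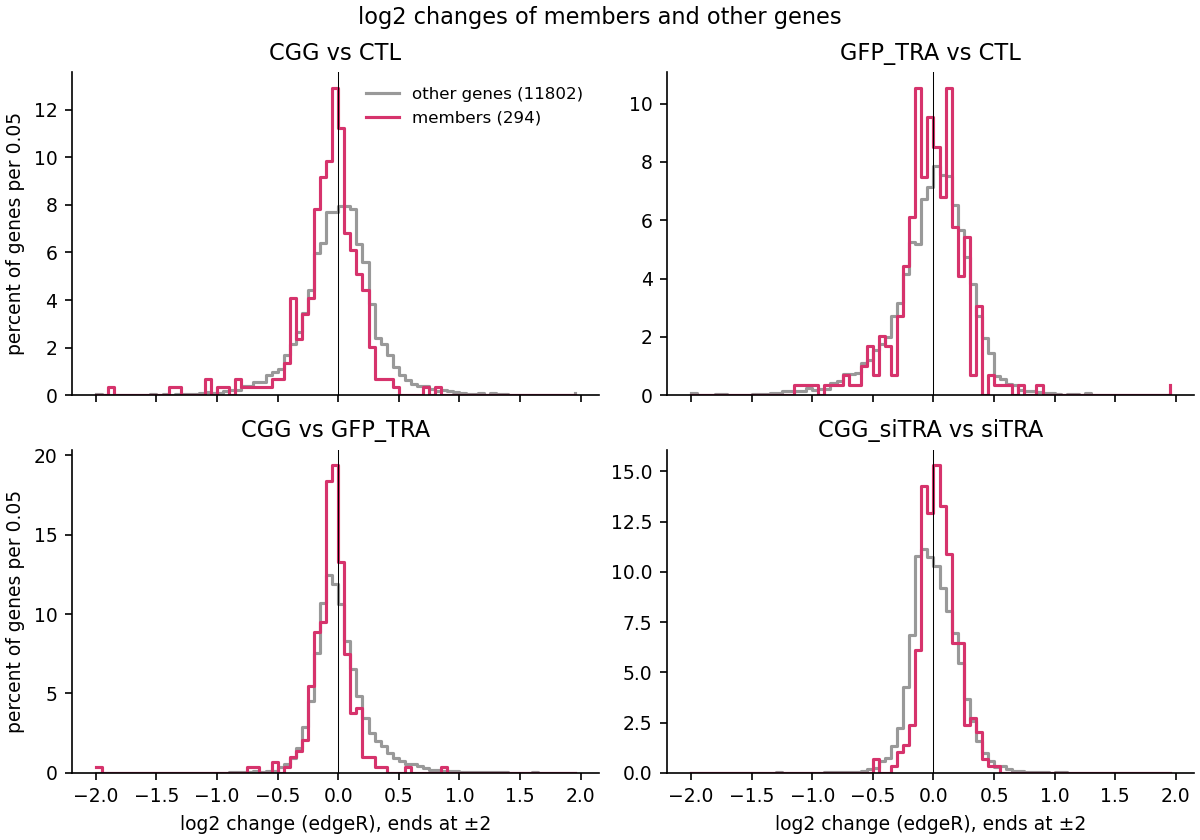
Each panel shows the distribution of edgeR log2 changes in 1 comparison, as the percentage of genes per step of 0.05, for the 294 members and the 11802 other genes with a lowest mean of 50 or more, with values ending at ±2. The members' medians of -0.04, -0.0046, -0.05 and 0.04 in CGG vs CTL, GFP_TRA vs CTL, CGG vs GFP_TRA and CGG_siTRA vs siTRA lie near 0, and TRA2A is the bar at the end of the axis in both GFP_TRA panels.

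The knockdown difference could itself depend on the repeat, which an interaction term tests as CGG_siTRA vs CGG against siTRA vs CTL. This test was added after the data were seen. It called 38 members with a weaker knockdown difference in the presence of the repeat (8.93% of all genes tested had a positive term) and 8 with a stronger one (7.47% had a negative term), in the edgeR test after Benjamini-Hochberg adjustment. The median interaction was 0.09 on the log2 scale over members and 0.00 over all genes tested. By construction the term is also the change in CGG_siTRA vs siTRA minus that in CGG vs CTL. Genes 267 and 255, with positive terms, had CGG libraries well under their CTL libraries, and gene 110, with a negative term, had them well over. Without CGG library 4, 28 members had a positive and 2 a negative term called, against 6.63% and 5.19% of all genes. The rule used all 4 group means of the term, so these calls describe the members and support nothing.

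The low levels extended over the length of the members. Of 5278 member exon bins with a mean of at least 10 in some group, 4824 (91.4%) were lower in both knockdown groups than in each other group, which 26.9% of the bins of the other genes were. Every such bin was lower in 120 of 271 members, and in 0 members were fewer than 50% of the bins lower. Among bins with a mean of at least 50, 98.8% were lower, and 216 of 251 members had every bin lower. No member bin of at least 50 reads was 1.5 times or more higher in the knockdown groups than in the others and above each other group. These bins make up the sums that chose the members, so the shares describe the members and test nothing.

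The same difference was seen from the 5' to the 3' end. In the 237 members with at least 6 bins, the median knockdown level was 0.612, 0.604, 0.587, 0.59 and 0.585 times that of the other groups in 5 equal parts of the bins, from the 5' end on. In the other genes these medians lay between 0.926 and 0.941. The last part was lower than the first in 141 of the 237 members, and a 2-fold gap between the ends was found in 1 member each way. The division into 5 parts was added after the data were seen.

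**Figure D5:**
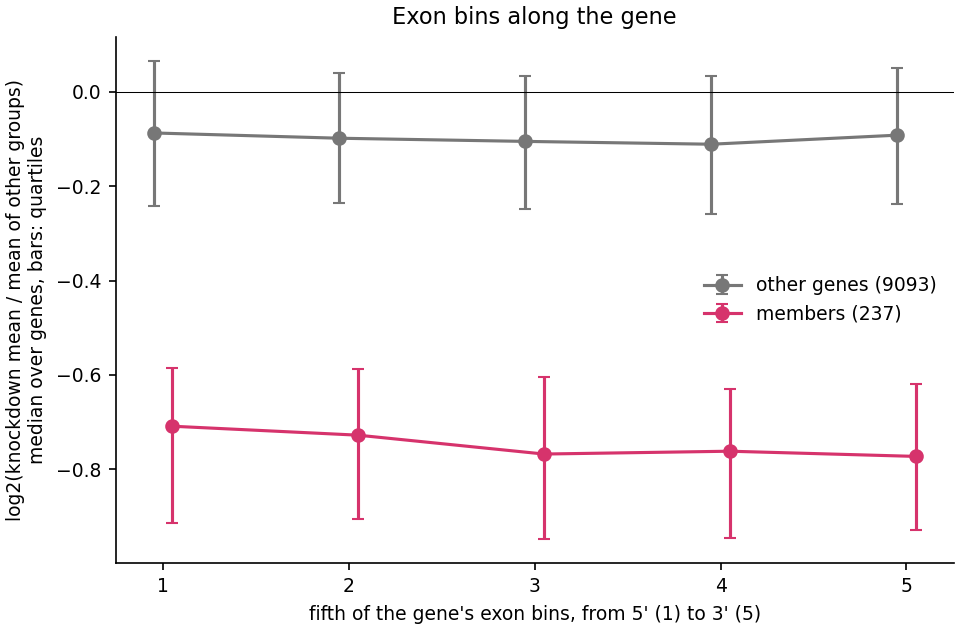
Points are the median over genes of the log2 ratio of the mean of the knockdown groups to the mean of the other groups, in 5 parts of a gene's exon bins from the 5' end (1) to the 3' end (5), with bars for the quartiles. The 237 members lie between -0.71 and -0.77 and the 9093 other genes between -0.09 and -0.11, with no trend along the gene as large as the quartile range.

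In a few members a single exon bin held most of the difference. The largest bin carried 15.5% of a member's difference in the median, and over 50% of it in 28 members. In gene 294 on chromosome 19 the bin from 53351085 to 53354869 carried 96.0%, with 839.6 reads in CTL, 825 in CGG, 909 in GFP_TRA, 604 in siTRA and 495 in CGG_siTRA, and 2 of its 4 bins were lower.

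Members were spread over the genome. The 273 members with coordinates lay on 23 chromosomes, 146 on the plus and 127 on the minus strand, and the other 21 were single-bin genes without coordinates. Their median summed bin length was 4947 bases, against 4954 for the genes with a lowest mean of 50 or more, their median span 38331 against 34182 bases, and their median number of bins 23.5 against 23. The share of such genes that were members was highest on chromosome X, with 20 of 405 (4.94%), and lowest among chromosomes with a member on chromosome 9, with 5 of 459 (1.09%). There were 13 pairs of members within 100 kb of each other, made of 26 genes. The only overlapping members were gene 23 (chromosome 15, 22867052 to 22981063, minus strand), with 50.9% left, and gene 202 (chromosome 15, 22838644 to 22868384, plus strand), with 71.2% left, on opposite strands. In all, the spans of 71 members overlapped a measured gene on the other strand.

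Splicing values came from the authors' deposited table for each comparison, which lists 6311 events, 131 of them in 80 members. An event was called at an adjusted p under 0.05, adjusted here from the deposited p-values. In the authors' deposited table for CGG vs CTL 2 member events were called (1.33% of all events were), and in that for GFP_TRA vs CTL 3 were (1.22%). The authors' deposited table for CGG_TRA vs CGG called 0 member events (0.412% of all events), and that for CGG_TRA vs CGG_siTRA 2 (0.713%). In the authors' deposited table for CGG_siTRA vs siTRA 0 member events were called (0.0475%). These shares of 131 events are counts of 3 or fewer, and most of the 80 members had no event called in any table. The other members had no event listed, so none could be called there. At an unadjusted p under 0.01 the authors' deposited tables held 5 member events in CGG vs CTL (3.42% of all events), 7 in GFP_TRA vs CTL (3.68%), 2 in CGG_TRA vs CGG (2.96%), 3 in CGG_TRA vs CGG_siTRA (3.63%) and 4 in CGG_siTRA vs siTRA (2.09%).

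The largest of these changes was in gene 179 (chromosome 4, 113451032 to 113761927, minus strand), at an alternative 3' splice site between 113509672 and 113513328. The authors' deposited table gave it a change in percent spliced in of 18.2 percentage points in CGG vs CTL (adjusted p = 0.00021) and of 14.4 in GFP_TRA vs CTL (adjusted p = 0.00768). The files do not state the direction, so sizes are given without a sign. The level of the gene itself was 16134, 17231 and 17427 reads in CTL, 18615, 16897 and 17488 in CGG and 17548, 17412 and 19032 in GFP_TRA, which overlap. In gene 28 (chromosome 19, 40230318 to 40285536, minus strand) an alternative 5' splice site between 40233951 and 40235101 changed by 1.89 percentage points in CGG vs CTL and 1.67 in GFP_TRA vs CTL, per the authors' deposited table. In gene 59 (chromosome 1, 31906421 to 31938358, minus strand) a cassette exon between 31911826 and 31918970 changed by 2.01 points in GFP_TRA vs CTL, per the authors' deposited table. In CGG_TRA vs CGG_siTRA the authors' deposited table gave alternative first exons of gene 126 (chromosome 19, 12995608 to 13098796, plus strand) a change of 4.07 points (adjusted p = 0.000246) and of gene 215 (chromosome 15, 90388218 to 90502243, plus strand) a change of 1.03 points (adjusted p = 0.0494). Except in gene 179, these called changes are under 5 percentage points.

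Relative use of single exon bins was also deposited by the authors. In the authors' deposited table for CGG vs CTL, 56 of 273 members (20.5%) had at least 1 bin at an adjusted p under 0.05, against 16.7% of the other genes with a lowest mean of 50 or more. In the authors' deposited table for CTL vs GFP_TRA 35 of 273 members (12.8%) had one, against 11.5%. Counted by bin, the authors' deposited table for CGG vs CTL called 81 of 5904 member bins (1.37%), against 1.45% of all bins listed. That for CTL vs GFP_TRA called 73 of 6201 member bins (1.18%), against 0.872%. The higher share of members in CGG vs CTL was thus not seen by bin. The authors' deposited tables for the knockdown comparisons, whose libraries chose the members, are given as a description. At least 1 such bin was listed there in 34 of 273 members (12.5%) for GFP_TRA vs siTRA, against 5.75% of the other genes, and in 59 of 272 (21.7%) for CTL vs siTRA, against 16.2%. For CGG_siTRA vs CGG it was listed in 82 of 271 members (30.3%), against 24%, and for CGG_siTRA vs CTL in 92 of 272 (33.8%), against 27.7%. Of the members, gene 280 (chromosome 1, 167721192 to 167791919, plus strand) had the bin with the smallest adjusted p in the authors' deposited table for CGG vs CTL, from 167774556 to 167774847 (adjusted p = 1.47e-13). That bin had 52.5 ± 14.5 reads in CTL and 155 ± 6.75 in CGG (SD, n = 3), and it stood at 126 in GFP_TRA, 125 in siTRA and 111 in CGG_siTRA. It was higher in every treated group than in CTL, while the sum over the gene was lower under knockdown. In gene 179 the authors' deposited table called the bin from 113509673 to 113509675 (adjusted p = 7.56e-06), which touches the alternative splice site above and had 190.3 ± 16.1 reads in CTL and 284 ± 32.4 in CGG (SD, n = 3).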

How the data were processed

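Total RNA of COS-7 cells was depleted of ribosomal RNA for TruSeq libraries, per the labels' protocols. The submitters' processing notes name cutadapt 1.14, STAR 2.5.2, GRCh38.p10 and, without version or role, DESeq2. Monkey reads that differ from the human genome may fail to align. The annotation, the strand setting and the counting of bins are not given in the sources used here.

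The authors deposited a normalised signal for 603668 exon bins in 15 libraries. With 1 factor per library removed, 100% of the values were whole reads (to 0.1 of a read), and 0 of 14640744 cells differed from the raw counts in the authors' DEXSeq tables. Those tables also hold p-values, adjusted p-values and log2 fold changes, per the file headers. The deposited EventPointer tables hold p-values, z scores (not used) and a fraction, the difference in percent spliced in, per the file headers. Each count column took its group from the names of the tables that hold it.

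Reads were summed per gene, and the rule was applied to the authors' normalised signal. The 17526 genes and groups of overlapping genes with 10 or more normalised reads in at least 3 libraries entered a single edgeR 4.0.16 fit of all 15 libraries (R 4.3.3; TMM; quasi-likelihood; Benjamini-Hochberg, threshold 0.05). Tested on simulated counts of 17526 genes, 200 of them changed, it found 64% of 1.5-fold and 75% of 2-fold changes in CGG vs CTL, and 5 of its 144 calls were false. The SE is the log2 change over the square root of F. Alternatives were the authors' factors, DESeq2 1.42.0, no filter, the compared groups alone, each library left out, and other limits of the rule.

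The members and the lists were chosen with earlier results of these data known. Genes named are the 25 members with the lowest share left, among the members called in each comparison up to 5 with the largest rise and up to 5 with the largest fall, those next to the limit, the 5 highest per kilobase and those with called events in CGG_TRA vs CGG (0). Genes 28, 59, 126, 179, 215 and 280 and the partner of gene 23 were chosen after their values were seen. The knockdown comparisons chose the members, so no edgeR call is given for them. CGG_TRA levels were not analysed here.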

Additional observations from a re-analysis of the deposited data

Results flagged for a closer look

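Among the members named above, 11 differed in their knockdown difference between cells without the repeat (siTRA vs CTL) and with it (CGG_siTRA vs CGG), by an interaction term in edgeR with Benjamini-Hochberg adjustment over 17526 genes. The test was added after the data were seen, and the term holds the CGG vs CTL change with its sign turned. The rule that chose the members used all 4 group means of the term, and most of these genes were named for a change in CGG vs CTL or CGG vs GFP_TRA. The p-values are therefore not independent of the choice of genes and support nothing. No cause was tested.

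The knockdown difference was smaller with the repeat in 6 genes. Gene 267 had the largest term, 2.19 (SE 0.33, adjusted p = 0.000256) on the log2 scale, from log2 changes of -2.53 without the repeat and -0.33 with it. Gene 255 followed with 1.49 (SE 0.22, adjusted p = 0.000225), from -1.84 without the repeat and -0.34 with it. In gene 155 the term was 1.15 (SE 0.30, adjusted p = 0.0132), from -1.61 without the repeat and -0.45 with it. These 3 genes stood high in the CTL libraries alone. For gene 237 it was 0.67 (SE 0.13, adjusted p = 0.00192), from -1.03 without the repeat and -0.36 with it, for gene 23 it was 0.34 (SE 0.08, adjusted p = 0.00504), from -1.22 without the repeat and -0.87 with it, and for gene 198 it was 0.33 (SE 0.10, adjusted p = 0.0415), from -0.81 without the repeat and -0.48 with it.

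The knockdown difference was larger with the repeat in the other 5 genes. Gene 110 had the largest of these terms, -0.82 (SE 0.10, adjusted p = 3.45e-05), from log2 changes of -0.57 without the repeat and -1.39 with it. Gene 225 had -0.41 (SE 0.10, adjusted p = 0.007), from -0.42 without the repeat and -0.83 with it, and gene 76 had -0.35 (SE 0.10, adjusted p = 0.0244), from -0.66 without the repeat and -1.01 with it. In gene 73 the term was -0.34 (SE 0.11, adjusted p = 0.044), from -0.73 without the repeat and -1.07 with it, and in gene 51 it was -0.26 (SE 0.08, adjusted p = 0.0438), from -0.72 without the repeat and -0.98 with it. All 5 genes rose in CGG vs CTL.

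Each term kept its sign in all 13 alternative fits (the authors' factors and each of 12 libraries left out). The call was lost in 4 of these fits for gene 76 (adjusted p 0.0617 to 0.0728, without CGG library 4 or 6, CGG_siTRA library 17 or CTL library 1), in 9 for gene 73 (0.0524 to 0.118), in 10 for gene 198 (0.0569 to 0.116) and in 10 for gene 51 (0.0546 to 0.118). Those of gene 73 were lost in all but the fits with the authors' factors and without CGG library 6, CGG_siTRA library 18 or siTRA library 15. For gene 51 the call held with the authors' factors and without CGG_siTRA library 18 or siTRA library 14, and for gene 198 without CGG_siTRA library 18, CTL library 2 or siTRA library 14.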

How the results depend on the processing

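A limit of 0.7 on the ratio gave 179 members and one of 0.8 gave 495, against 294 at 0.75. Leaving out 1 library gave 273 to 353 members, and the median over a gene's bins in place of the sum gave 305, of which 263 were among the 294. The members called in CGG vs CTL (56) numbered 116 when only the compared groups were fitted, where 19.8% of all genes were higher and 19.8% lower. Without 1 library they numbered 37 to 47, with 37 reached without CTL library 3 (6.76% and 7.63% of all genes). Those in GFP_TRA vs CTL (75) numbered 47 to 57 without 1 library, with 47 reached without CTL library 1 (7.53% of all genes higher and 9.37% lower). Those in CGG vs GFP_TRA (8) numbered 20 with the authors' factors (3.55% of all genes higher and 4.24% lower), 21 in DESeq2 (6.04% and 3.77%) and 34 with these groups alone (8.51% and 5.8%). Without 1 library they numbered 2 to 7, the 7 without GFP_TRA library 9 (2.88% and 1.19%). Those in CGG_siTRA vs siTRA (0) numbered 7 in DESeq2 (1.28% of all genes higher and 1.19% lower) and 4 with no filter (1.42% and 0.374%). Without 1 library they numbered 0 to 1, the 1 without CGG_siTRA library 16 (0.548% and 0.639%). The interaction (46) was called in 30 to 57 members without 1 library. The 30 came without CGG library 4, where 6.63% of all genes had a positive and 5.19% a negative term called. The 57 came without siTRA library 14, where 9.67% and 9.42% of all genes did. At an unadjusted p under 0.01, the authors' deposited tables called 5 member events in CGG vs CTL (3.42% of all events), 2 in CGG_TRA vs CGG (2.96%), 4 in CGG_siTRA vs siTRA (2.09%) and 7 in GFP_TRA vs CTL (3.68%). The cause of these differences was not tested. The 25 lowest ratios stayed under 0.75 in all 424 values under other settings, the highest being 0.672, and 7 of these values moved beyond 1 SD. These 25 were chosen for the lowest ratios in the same libraries, so staying under 0.75 was nearly fixed by the choice and tests nothing. Of 25 calls of named members, 9 were lost in at least 1 of 10 alternatives, each time when a library was left out, and these calls kept their direction. The members' median log2 change did not keep its sign in GFP_TRA vs CTL (-0.0046, and 0.02 with the authors' factors) or in CGG_siTRA vs siTRA (0.04, and -0.03 with the authors' factors). Where a library was left out, the group of 2 shared the spread of the others. No paired analysis was possible because the count columns are numbered by library and do not carry the titles' replicate numbers, so no replicate block was fitted. The 33 members with a CTL mean under 200 reads rest on the fewest counts.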
